A study of Mus with 6 samples.

Results

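The genes that supply activated CD4+ T cells with serine, folate-bound carbon units and nucleotides were compared between cells cultured with an antibody to VEGF-B and cells cultured with IgG. A list of 36 genes was matched by symbol to the 10995 protein-coding genes of the deposited table, and all 36 were present. They fall into 8 genes of the serine and folate branch, 12 of the purine branch, 10 of the pyrimidine branch and 6 that serve purines and pyrimidines alike. The measurement was bulk RNA-Seq of naive CD4+ T cells (CD4+ Tn cells) from the spleens of wild-type (WT) mice, with 3 libraries for each treatment. For 3 days, all cells were activated with anti-CD3 at 5 μg/mL and anti-CD28 at 2 μg/mL, together with 100 U/mL IL-2, in RPMI 1640 medium with 10% FBS, 2 mM glutamine and 55 μM β-mercaptoethanol. Anti-VEGF-B was added at 1 μg/mL for 3 libraries, and normal goat IgG at 1 μg/mL for the other 3. The age of the mice is not given in the sources used here, and nothing in the labels says whether the 3 libraries of a group came from separate mice or cultures, so that the p-values measure the spread between these libraries.

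A T cell that leaves quiescence copies its genome and a large amount of RNA, and for this it must make nucleotides. Serine is made from a glycolytic intermediate by the enzymes encoded by Phgdh, Psat1 and Psph, and serine hydroxymethyltransferases pass a carbon unit from serine to folate, in the cytosol and in mitochondria. Folate-bound carbon enters the purine ring, which is built step by step on a ribose phosphate, and the methyl group of thymidylate. Pyrimidines are built first as a free ring and then joined to ribose phosphate, and ribonucleotide reductase turns the ribonucleotides of both kinds into the deoxyribonucleotides of DNA.

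Levels are given as FPKM, fragments per length of transcript and per total of mapped fragments, which are scaled by gene length and can be compared between genes. The mean over the 6 libraries ran from 0.407 FPKM for Pfas to 237 FPKM for Nme2, with Impdh1 (98.8 FPKM) and Mthfd1l (98.0 FPKM) next below Nme2. The median level of the members was 22.3 FPKM in the serine and folate branch, 20.1 FPKM in the purine branch, 2.60 FPKM in the pyrimidine branch and 4.19 FPKM among the shared steps. Shmt1, Pfas, Dhodh and Tyms had a mean under 1 FPKM and were kept out of the fit, which left 32 members. Their values below come from a fit with no filter on level.

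**Figure D1:**
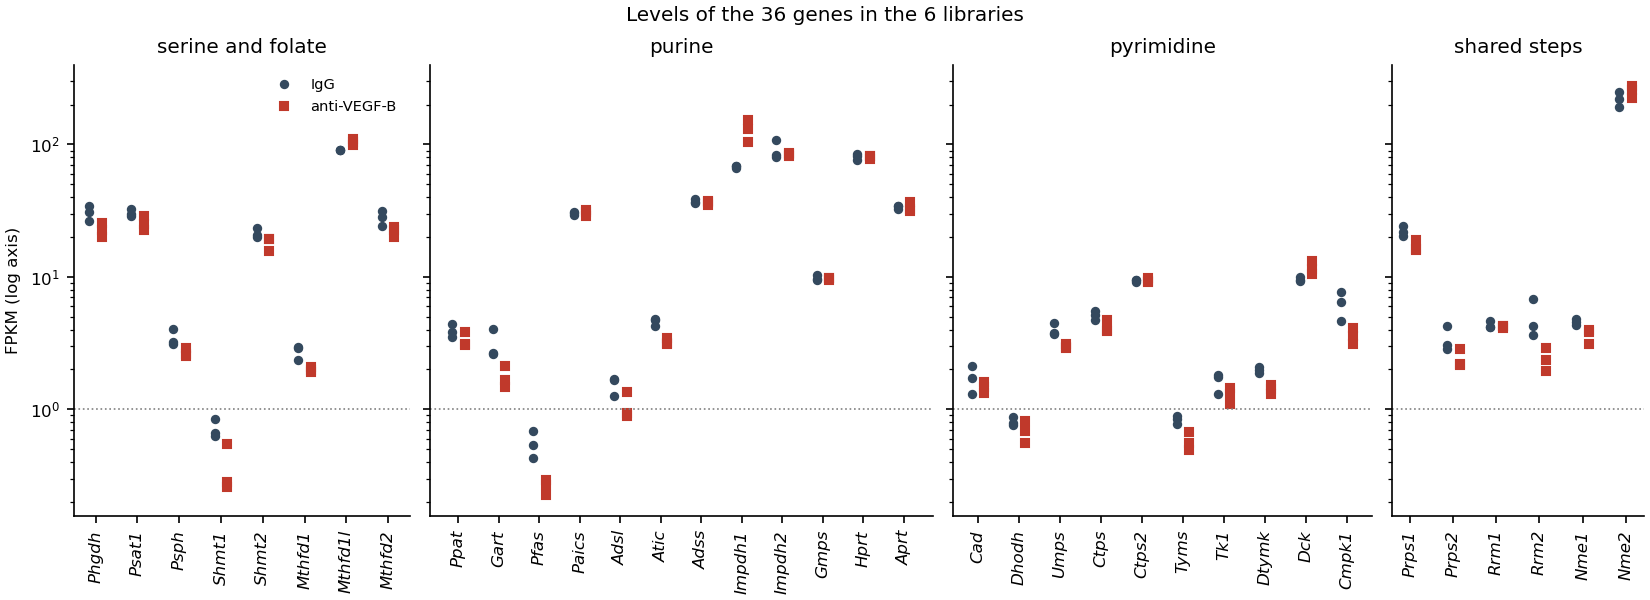
FPKM of the 36 genes (log axis) in each of the 3 IgG libraries (circles) and the 3 anti-VEGF-B libraries (squares), ordered by branch, with a dotted line at 1 FPKM. Impdh1, among the genes of high level, had all anti-VEGF-B libraries at 104 FPKM or more and all IgG libraries at 69.0 FPKM or less. Of the genes of 20 FPKM and over, Mthfd1l was also apart on the higher side, and Phgdh, Psat1 and Mthfd2 on the lower side.

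Of the 32 members tested, 9 fell with anti-VEGF-B and 1 rose, at an adjusted p under 0.05 (limma with Benjamini-Hochberg adjustment over 8816 genes). Phgdh and Mthfd1 of the serine and folate branch fell, as did Gart and Atic (purine), Umps, Dtymk and Cmpk1 (pyrimidine) and Prps1 and Rrm2 (shared steps). Impdh1, of the guanine branch of purine synthesis, rose. The 9 that fell are 28.1% of the members tested, against 23.8% of all genes tested, and called members of either direction are 31.3%, against 28.7% of all genes. Of all genes tested 4.87% rose. With the values as deposited, the members' share of calls thus lay near that of all genes. The median log2 fold change of the members was -0.24 and that of all genes tested was -0.15, with 26 of the 32 members and 6273 of the 8816 genes below 0. Among all 36 members, the 3 anti-VEGF-B libraries lay below the 3 IgG libraries for 19 (52.8%, against 38.4% of all genes listed) and above them for 3 (8.33%, against 8.87%), and 14 overlapped.

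The table had no stated normalization between libraries, and scaling the libraries to each other left fewer members called. Quantile normalization left 1 member lower (Rrm2) and 2 higher (Impdh1 and Dck). Median centring left 2 lower (Cmpk1 and Rrm2) and 3 higher (Impdh1, Dck and Mthfd1l), and cyclic loess left 2 lower (Cmpk1 and Rrm2) and 2 higher (Impdh1 and Dck). Rrm2 and Impdh1 were called in the same direction under all 4 scalings. The called share was then 9.38% of members against 20.3% of all genes (quantile normalization), 15.6% against 24.6% (median centring) and 12.5% against 20.3% (cyclic loess). The median of the members was -0.048, -0.043 and -0.048 under the 3 scalings, where the median of all genes was 0.0077, 0.049 and 0.0019. Over all genes tested, the lower and higher shares were 10.4% and 9.98%, 9.15% and 15.5%, and 10.6% and 9.66%. These scalings bring the libraries to a common centre or distribution, so a smaller surplus of genes called lower follows in part from the scaling itself. Whether the surplus with the values as deposited came from the scale of the libraries or from the cells was not tested. In bulk RNA, fewer cells with a transcript and less of it in each cell cannot be told apart.

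**Figure D2:**
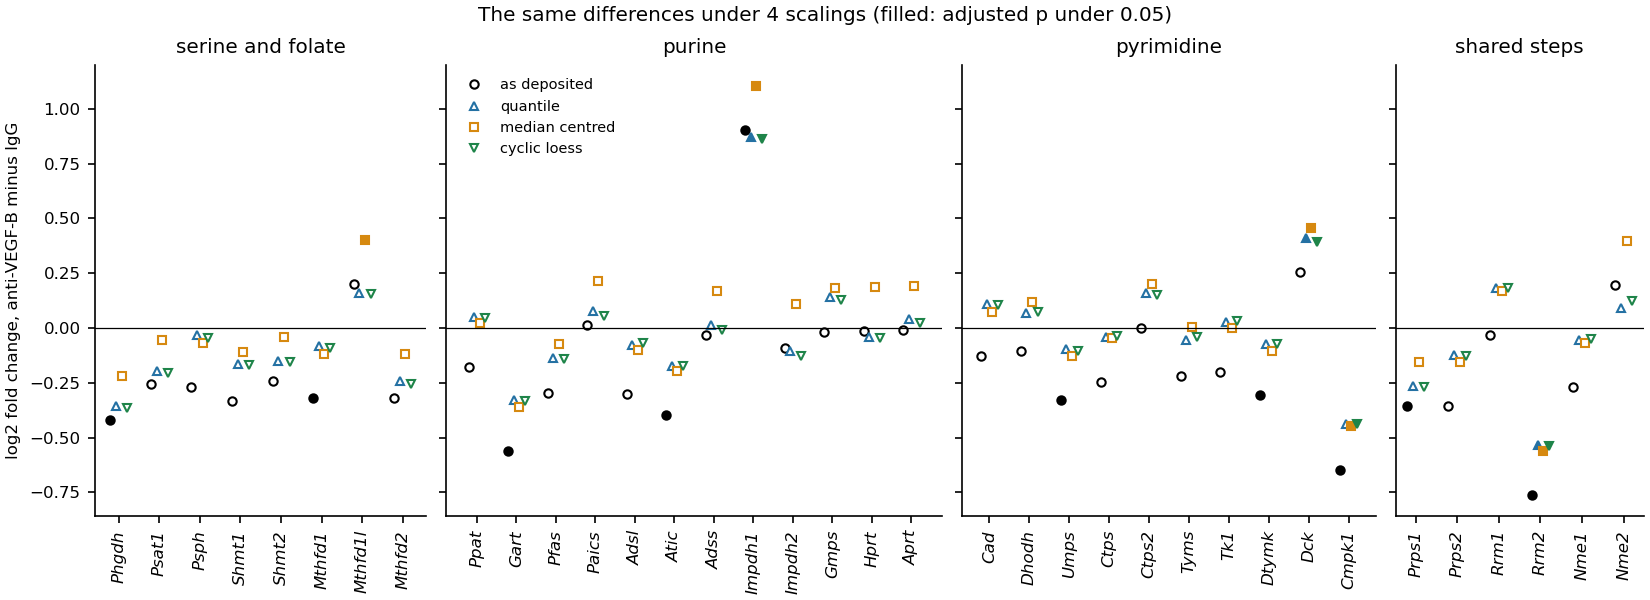
Log2 fold change (anti-VEGF-B minus IgG) of each gene with the values as deposited and after quantile normalization, median centring and cyclic loess, with filled symbols where the adjusted p was under 0.05. Rrm2 on the lower side and Impdh1 on the higher side are filled under all 4 scalings, while 11 genes, among them Rrm1, Impdh2, Hprt, Tk1 and Tyms, change sign between scalings.

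The 10 CD4+ T cell markers summed to between 699 and 736 FPKM with anti-VEGF-B and between 687 and 777 FPKM with IgG, and 2 of them were called lower (Cd3e and Cd5). The table listed 1 of 6 B cell markers, 1 of 4 NK cell markers and 0 of 6 erythroid markers, and the 2 CD8 genes summed to at most 4.69 FPKM in any library. The 5 of 7 myeloid markers listed summed to 11.9 to 13.3 FPKM with anti-VEGF-B and 13.3 to 32.1 FPKM with IgG, where IgG library 3 was the high one and 0 of them were called. Without IgG library 3, 6 members were called lower and 1 higher, 21.9% of members called against 21.0% of all genes. The members together made up 0.336% to 0.353% of the summed FPKM with anti-VEGF-B and 0.323% to 0.335% with IgG, a total in which Nme2, Impdh1 and Mthfd1l weigh most. Genes at 0 numbered 59 to 91 in the anti-VEGF-B libraries and 36 or 37 in the IgG libraries, and the depth of the libraries is unknown, so the part of depth in the calls was not tested.

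In the serine and folate branch, 2 of 7 tested genes fell and 0 rose, 28.6% against 28.7% of all genes called in either direction. Phgdh encodes the first enzyme of serine synthesis from glucose and lies at chr3:98313170-98339990 (minus strand, GRCm38). Phgdh was at 22.5, 25.6 and 19.8 FPKM in anti-VEGF-B libraries 1 to 3 and at 34.4, 31.0 and 26.5 FPKM in IgG libraries 1 to 3. The groups did not overlap, with anti-VEGF-B library 3 the lowest and IgG library 1 the highest. The mean fell from 30.6 ± 3.96 to 22.7 ± 2.91 FPKM (SD, n = 3), a log2 fold change of -0.42 (SE 0.118, 95% interval -0.69 to -0.15, adjusted p = 0.0297). The adjusted p ran from 0.0693 to 0.102 when anti-VEGF-B library 1 or 3 or IgG library 1 or 2 was left out.

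The other enzymes of serine synthesis did not pass the threshold. Psat1, the aminotransferase of the pathway, had means of 30.6 ± 1.92 FPKM with IgG and 25.5 ± 3.15 FPKM with anti-VEGF-B (log2 fold change -0.26, adjusted p = 0.0775). Psph, the phosphatase of the last step, had -0.27 (adjusted p = 0.0986) at 3.45 ± 0.506 and 2.68 ± 0.191 FPKM. For both, the highest anti-VEGF-B library lay below the lowest IgG library, which for Psat1 was by 28.86 against 28.91 FPKM.

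Mthfd1 encodes the cytosolic enzyme with 3 activities that interconverts folate-bound carbon units (chr12:76255298-76319803, plus strand). Mthfd1 was at 1.98, 2.08 and 1.92 FPKM with anti-VEGF-B and at 2.95, 2.93 and 2.36 FPKM with IgG, with no overlap. Its mean fell from 2.75 ± 0.335 to 1.99 ± 0.0821 FPKM, a log2 fold change of -0.32 (SE 0.106, adjusted p = 0.0486). The call was lost when any library other than IgG library 3 was left out (adjusted p 0.0887 to 0.145), and with no filter on level (adjusted p = 0.0563).

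The mitochondrial enzymes of the same reactions are encoded by separate genes. Mthfd2, a mitochondrial dehydrogenase and cyclohydrolase that is high in proliferating cells, lies at chr6:83305691-83325908. Mthfd2 was at 23.8, 22.4 and 20.04 FPKM with anti-VEGF-B and at 31.3, 28.2 and 24.1 FPKM with IgG. The groups were apart by a narrow margin, with a log2 fold change of -0.32 and an adjusted p of 0.0528 that missed the threshold. Without IgG library 3, the adjusted p was 0.0304.

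Mthfd1l, whose product releases formate from mitochondrial folate, was the only gene of the branch with a log2 fold change above 0 (chr10:3973118-4167081, plus strand). Mthfd1l was at 105, 110 and 99.5 FPKM with anti-VEGF-B and at 91.6, 90.8 and 90.8 FPKM with IgG. Every anti-VEGF-B library was above every IgG library, whose SD was 0.444 FPKM. The log2 fold change was 0.20 (SE 0.0685, 95% interval 0.046 to 0.35, adjusted p = 0.0549), and it passed under median centring (0.40, adjusted p = 0.0127). The serine hydroxymethyltransferase genes were both below their IgG levels in every anti-VEGF-B library. The mitochondrial Shmt2 had means of 21.4 ± 1.78 FPKM with IgG and 18.0 ± 2.03 FPKM with anti-VEGF-B (log2 fold change -0.24, adjusted p = 0.101). The cytosolic Shmt1, under the filter, had means of 0.710 ± 0.114 and 0.363 ± 0.159 FPKM. In the fit with no filter its log2 fold change was -0.33 and its adjusted p 0.0446, which was over 0.05 in 5 of 6 fits that left out a library.

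In the branch as a whole, anti-VEGF-B thus lay below IgG without overlap for 7 of 8 genes (87.5%, against 38.4% of all genes listed). It lay above for 1 (12.5%, against 8.87%), and the median log2 fold change was -0.27. Of the 7 genes, only Phgdh and Mthfd1 were called with the values as deposited. Under all 4 scalings, Phgdh, Psat1, Psph, Shmt1, Shmt2, Mthfd1 and Mthfd2 stayed below 0 and Mthfd1l above 0, although no tested gene of the branch was called under quantile normalization or cyclic loess.

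**Figure D3:**
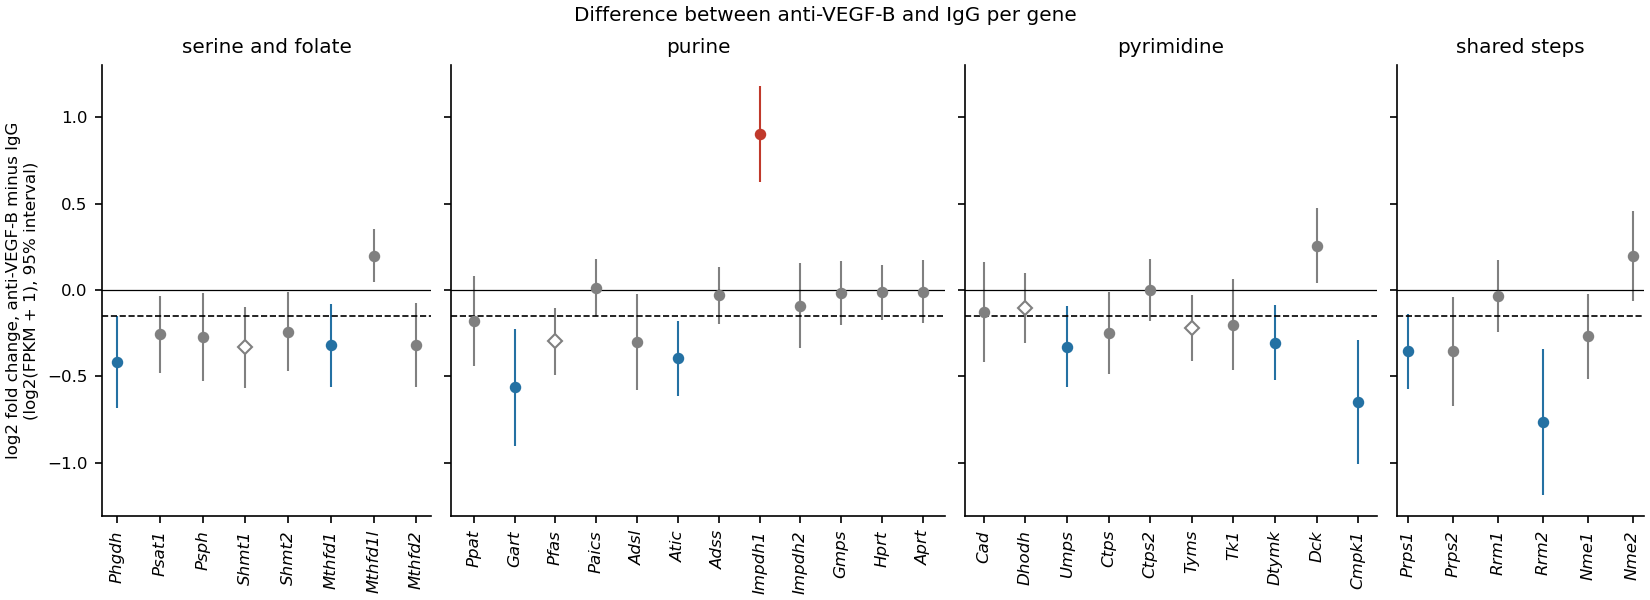
Log2 fold change (anti-VEGF-B minus IgG) with its 95% interval for each gene by branch, with the values as deposited, blue where called lower, red where called higher, grey where not called and open diamonds for the 4 genes under the filter. The dashed line marks the median of all genes tested, -0.15. The serine and folate genes other than Mthfd1l lie below it, and the not-called purine genes Paics, Adss, Gmps, Hprt and Aprt lie close to 0. Of these purine genes, Adss, Gmps, Hprt and Aprt change sign under other scalings.

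The purine branch held the largest rise of the list beside a group of genes near 0. Of its 11 tested members 2 fell (18.2%, against 23.8% of all genes) and 1 rose, and its median log2 fold change was -0.031, above the -0.15 of all genes. The 12 genes include the steps that build inosinate (Ppat, Gart, Pfas, Paics, Adsl and Atic), the steps from inosinate to adenylate and guanylate (Adss, Impdh1, Impdh2 and Gmps) and the salvage enzymes Hprt and Aprt.

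On the way to inosinate, Gart and Atic were called lower, and neither was called under quantile normalization, median centring or cyclic loess (adjusted p 0.0589 to 0.0857 for Gart and 0.114 to 0.157 for Atic). Gart encodes an enzyme with 3 activities, among them glycinamide ribonucleotide formyltransferase, and lies at chr16:91621186-91646952 (minus strand). Gart was at 2.12, 1.65 and 1.48 FPKM with anti-VEGF-B and at 2.61, 4.01 and 2.67 FPKM with IgG. The groups did not overlap, and IgG library 2 stood above the other IgG libraries. The mean fell by 43.4%, from 3.10 ± 0.795 to 1.75 ± 0.329 FPKM, with a log2 fold change of -0.56 (SE 0.151, adjusted p = 0.0251). Without anti-VEGF-B library 2 or 3, or IgG library 2, the adjusted p was between 0.0570 and 0.0873.

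Atic encodes the bifunctional enzyme of the closing steps, which adds the second formyl group and closes the ring (chr1:71557150-71579631, plus strand). Atic was at 3.15, 3.46 and 3.12 FPKM with anti-VEGF-B and at 4.26, 4.77 and 4.72 FPKM with IgG. All anti-VEGF-B libraries were well below all IgG libraries, and the spread within each group was small. The log2 fold change was -0.40 (SE 0.0968, 95% interval -0.61 to -0.18, adjusted p = 0.0187). The adjusted p lay between 0.0551 and 0.0719 without anti-VEGF-B library 1 or 3 or IgG library 3.

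Of the remaining genes of the way to inosinate, Ppat, Adsl and Paics did not pass the threshold and Pfas was under the filter. Pfas, an amidotransferase, was at 0.293, 0.225 and 0.268 FPKM with anti-VEGF-B and at 0.425, 0.691 and 0.541 FPKM with IgG. Its adjusted p was 0.0369 in the fit with no filter, with a log2 fold change of -0.30, and was over 0.05 in 5 of 6 fits that left out a library. Ppat, the amidotransferase of the committed step, was at a log2 fold change of -0.18 with an adjusted p of 0.255, and Adsl, the adenylosuccinate lyase, was at -0.30 (adjusted p = 0.0917). Paics, a bifunctional enzyme of the middle steps, had means of 30.3 ± 0.904 FPKM with IgG and 30.6 ± 1.55 FPKM with anti-VEGF-B (log2 fold change 0.014, 95% interval -0.15 to 0.18, adjusted p = 0.901). Paics and Ppat overlap by 272 bases on opposite strands, and the library kit keeps strand.

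IMP dehydrogenase, the rate-limiting enzyme of guanine nucleotide synthesis, is encoded by Impdh1 (chr6:29200434-29216364, minus strand) and Impdh2 (chr9:108560286-108565584, plus strand). Impdh1 was at 132, 104 and 153 FPKM in anti-VEGF-B libraries 1 to 3 and at 68.7, 66.0 and 69.0 FPKM in IgG libraries 1 to 3. The IgG libraries were nearly equal and the anti-VEGF-B libraries all higher and more spread. The mean rose from 67.9 ± 1.63 to 130 ± 24.5 FPKM, a rise of 90.8% and a log2 fold change of 0.90 (SE 0.123, 95% interval 0.63 to 1.18, adjusted p = 0.00491). It was the only called member whose call was kept in all 6 fits that left out a library (log2 fold change 0.78 to 1.05, adjusted p 0.00936 to 0.0177), and it was lost only without moderation of the variances (adjusted p = 0.0708).

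The other isozyme gene, Impdh2, showed no such difference. Impdh2 was at 84.8, 86.8 and 82.3 FPKM with anti-VEGF-B and at 109, 80.7 and 83.3 FPKM with IgG, and the groups overlapped. Its log2 fold change was -0.090 (95% interval -0.34 to 0.16, adjusted p = 0.550). Impdh2 was the higher of the pair in every IgG library and Impdh1 the higher in every anti-VEGF-B library.

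The other genes that use inosinate, and salvage, had values close to those of IgG. Gmps, which makes guanylate, had means of 9.84 ± 0.475 FPKM with IgG and 9.70 ± 0.207 FPKM with anti-VEGF-B (log2 fold change -0.019, 95% interval -0.20 to 0.17, adjusted p = 0.878). Adss, of the adenylate branch, had a log2 fold change of -0.031 (95% interval -0.19 to 0.13, adjusted p = 0.759). Hprt, which salvages hypoxanthine and guanine, was at 81.4 ± 4.30 and 80.5 ± 2.43 FPKM (adjusted p = 0.897), and Aprt, which salvages adenine, was at 33.6 ± 0.960 and 33.5 ± 2.92 FPKM (adjusted p = 0.942). These 4 genes changed sign under other scalings, and the median of the branch turned to 0.17 under median centring.

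**Figure D4:**
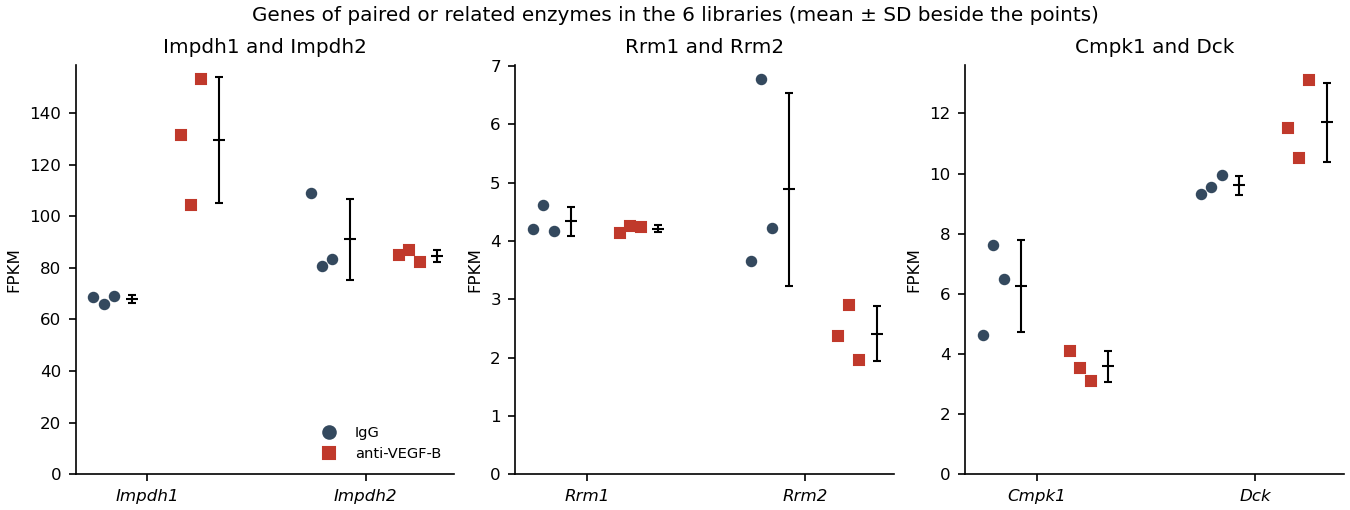
FPKM of Impdh1 and Impdh2, of Rrm1 and Rrm2, and of Cmpk1 and Dck in each IgG library (circles) and anti-VEGF-B library (squares), with the mean ± SD (n = 3) beside the points. Impdh1 rose and Rrm2 and Cmpk1 fell, while Impdh2 and Rrm1 overlap between the groups and Dck does not.

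In the pyrimidine branch, 3 of 8 tested members fell (37.5%, against 23.8% of all genes) and 0 rose (4.87% of all genes), with a median log2 fold change of -0.22. Cmpk1 had the largest fall of the branch. It encodes the kinase that phosphorylates cytidylate, uridylate and deoxycytidylate (chr4:114959336-114987241, minus strand). Cmpk1 was at 4.11, 3.55 and 3.10 FPKM with anti-VEGF-B and at 4.63, 7.64 and 6.50 FPKM with IgG. The groups did not overlap, with IgG library 1 near the anti-VEGF-B libraries. The mean fell by 42.7%, from 6.26 ± 1.52 to 3.58 ± 0.505 FPKM, a log2 fold change of -0.65 (SE 0.160, 95% interval -1.01 to -0.29, adjusted p = 0.0192). Without anti-VEGF-B library 3 or IgG library 2, the adjusted p was 0.0527 or above (highest 0.0689), and it passed under median centring (0.0392) and cyclic loess (0.0492) but not under quantile normalization (0.0520).

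Umps encodes the bifunctional enzyme that makes uridylate, the closing step of the new synthesis of pyrimidines (chr16:33954782-33967038, minus strand). Umps was at 2.93, 3.09 and 2.91 FPKM with anti-VEGF-B and at 3.79, 4.51 and 3.70 FPKM with IgG. The anti-VEGF-B libraries were close together and all below IgG, and the log2 fold change was -0.33 (SE 0.103, adjusted p = 0.0421). Dtymk encodes thymidylate kinase, which both thymidylate synthesis and thymidine salvage need (chr1:93792576-93801934, minus strand). Dtymk was at 1.43, 1.305 and 1.52 FPKM with anti-VEGF-B and at 1.89, 1.99 and 2.09 FPKM with IgG, again with no overlap. Its log2 fold change was -0.30 (SE 0.0967, adjusted p = 0.0431). Both calls were lost whichever of the 6 libraries was left out (adjusted p 0.0521 to 0.126 for Umps and 0.0530 to 0.121 for Dtymk). Neither gene was called under quantile normalization, median centring or cyclic loess. There the log2 fold change was -0.13 to -0.097 for Umps (adjusted p 0.275 to 0.398) and -0.10 to -0.073 for Dtymk (adjusted p 0.441 to 0.606).

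The first enzymes of the branch, and those of thymidylate, did not pass the threshold. Cad, which carries the first 3 activities on 1 protein, had a log2 fold change of -0.13 (95% interval -0.42 to 0.16, adjusted p = 0.465). Dhodh, the mitochondrial dehydrogenase of the pathway and under the filter, had -0.11 (adjusted p = 0.399). Tyms, thymidylate synthase, was at 0.558, 0.678 and 0.494 FPKM with anti-VEGF-B and at 0.883, 0.774 and 0.848 FPKM with IgG, a log2 fold change of -0.22 with an adjusted p of 0.0858. Tk1, the thymidine kinase of S phase, had means of 1.63 ± 0.277 FPKM with IgG and 1.29 ± 0.176 FPKM with anti-VEGF-B (adjusted p = 0.214). The groups overlapped for Cad, Dhodh and Tk1 but not for Tyms.

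Neither CTP synthase gene passed the threshold. Ctps, the form that proliferating lymphocytes depend on, was at a log2 fold change of -0.25 with an adjusted p of 0.103, with 5.14 ± 0.405 FPKM for IgG and 4.18 ± 0.442 FPKM for anti-VEGF-B and no overlap. Ctps2 had 9.38 ± 0.181 and 9.39 ± 0.295 FPKM, a log2 fold change of 0.0013 (95% interval -0.18 to 0.18, adjusted p = 0.993).

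Dck, deoxycytidine kinase, which starts the salvage of deoxycytidine, was the only pyrimidine gene with anti-VEGF-B above IgG in every library (chr5:88764996-88783281, plus strand). It is given in full after its values were seen. Dck was at 11.5, 10.5 and 13.1 FPKM with anti-VEGF-B and at 9.33, 9.54 and 9.96 FPKM with IgG. The log2 fold change was 0.26 (SE 0.0964, 95% interval 0.039 to 0.47) and the adjusted p of 0.0731 missed the threshold with the values as deposited. It passed under quantile normalization (log2 fold change 0.41, adjusted p = 0.0324), under median centring (0.46 and 0.0170) and under cyclic loess (0.39 and 0.0319).

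Among the genes that serve both kinds of nucleotide, 2 of 6 fell (33.3%, against 23.8% of all genes) and 0 rose. Rrm2, the small subunit of ribonucleotide reductase, which is made in S phase, had the lowest log2 fold change of the list on the log2(FPKM + 1) scale, while the mean of the low gene Pfas was 52.6% lower (chr12:24708241-24714146, plus strand). Rrm2 was at 2.37, 2.89 and 1.96 FPKM with anti-VEGF-B and at 3.66, 6.77 and 4.23 FPKM with IgG. The groups did not overlap, and IgG library 2 stood well above the rest. The mean fell by 50.7%, from 4.89 ± 1.66 to 2.41 ± 0.469 FPKM, with a log2 fold change of -0.76 (SE 0.188, 95% interval -1.19 to -0.34, adjusted p = 0.0191). The call was lost only without anti-VEGF-B library 3 (log2 fold change -0.54, adjusted p = 0.0675) among the fits that left out a library.

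Rrm1, the large subunit that holds the catalytic site, was at 4.14, 4.25 and 4.24 FPKM with anti-VEGF-B and at 4.21, 4.62 and 4.18 FPKM with IgG (chr7:102441695-102469771, plus strand). The groups overlapped, and the log2 fold change was -0.033 (95% interval -0.24 to 0.17, adjusted p = 0.802), with a sign that flipped under other scalings. The interval for Rrm1 did not reach that for Rrm2.

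Phosphoribosyl pyrophosphate, on which purines are built and to which the pyrimidine ring is joined, is made by the products of Prps1 and Prps2. Prps1 was at 19.0, 16.3 and 16.1 FPKM with anti-VEGF-B and at 24.3, 20.3 and 21.9 FPKM with IgG (chrX:140456613-140476140, plus strand). No anti-VEGF-B library reached an IgG library, and the mean fell by 22.8%, with a log2 fold change of -0.36 (SE 0.0969, 95% interval -0.57 to -0.14, adjusted p = 0.0262). The call was lost without anti-VEGF-B library 2 or 3 or IgG library 1 or 3 (adjusted p 0.0567 to 0.0920). Prps1 was also not called under quantile normalization, median centring or cyclic loess (adjusted p 0.0949 to 0.341). Prps2 was at 2.85, 2.20 and 2.18 FPKM with anti-VEGF-B and at 2.87, 4.23 and 3.05 FPKM with IgG (chrX:167346322-167382749). Its log2 fold change was as large, -0.36, but with a wider spread and an adjusted p of 0.0846.

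The nucleoside diphosphate kinases encoded by Nme1 and Nme2 phosphorylate nucleoside diphosphates of every base. Nme1 was at a log2 fold change of -0.27 with an adjusted p of 0.0914, at 4.56 ± 0.263 FPKM with IgG and 3.64 ± 0.469 FPKM with anti-VEGF-B. Nme2 was at 0.20 (adjusted p = 0.210), at 221 ± 29.4 and 253 ± 27.8 FPKM, and its groups overlapped. These genes are close in sequence and lie 719 bases apart on the same strand, so that the division of reads between them is uncertain.

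The ratio of a pair of genes does not change when all values of a library are multiplied by the same factor, although scalings that depend on level, such as quantile normalization and cyclic loess, can change it, and 10 pairs of isozymes, subunits or parallel enzymes were compared in this way with a two-sided exact permutation test. With 3 libraries against 3 the smallest p this test can give is 0.1, which is 0.167 after Benjamini-Hochberg adjustment over the 10 pairs, so that no pair could pass 0.05. In 6 of the 10 pairs the groups did not overlap and the exact p was 0.1. Each of the 6 holds a gene whose own groups did not overlap, so these ratios in part restate the results of single genes. Of all single genes listed, 38.4% lay apart on the lower side and 8.87% on the higher side. The share among pairs of other genes was not counted.

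The Impdh2/Impdh1 ratio was 0.644, 0.833 and 0.538 with anti-VEGF-B and 1.58, 1.22 and 1.21 with IgG. Its mean log2 was lower by 1.01 with anti-VEGF-B (log2 difference -1.01), and between -1.17 and -0.86 with a library left out. The Rrm2/Rrm1 ratio was 0.572, 0.681 and 0.462 with anti-VEGF-B and 0.870, 1.46 and 1.01 with IgG, a log2 difference of -0.95. Transcripts of the 2 subunits were thus near each other in level with IgG, and Rrm2 was the lower one in every anti-VEGF-B library.

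The Mthfd1l/Mthfd1 ratio, mitochondrial over cytosolic, was 53.1, 52.8 and 51.9 with anti-VEGF-B and 31.0, 31.0 and 38.5 with IgG, a log2 difference of 0.66. The Dck/Tk1 ratio had means of 9.17 ± 1.06 and 6.04 ± 1.33 (log2 difference 0.62), and the Ctps2/Ctps ratio had means of 2.26 ± 0.161 and 1.83 ± 0.157 (log2 difference 0.30), in each case without overlap. The Shmt2/Shmt1 ratio had a log2 difference of 0.79, which was 0.091 when 1 FPKM was added to each value, since Shmt1 was under 1 FPKM. All 4 of these ratios were higher with anti-VEGF-B.

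The other 4 pairs overlapped between the groups. The Mthfd2/Mthfd1 ratio had means of 11.1 ± 0.833 and 10.2 ± 0.496 (exact p = 0.2, n = 3), and Nme2/Nme1 had 70.6 ± 12.8 and 48.8 ± 9.28 (exact p = 0.2, n = 3). Aprt/Hprt had 0.416 ± 0.0299 and 0.415 ± 0.0324 (exact p = 0.9, n = 3). Prps2/Prps1 had 0.140 ± 0.00859 and 0.155 ± 0.0471 (exact p = 0.8, n = 3), and its difference changed sign when a library was left out.

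**Figure D5:**
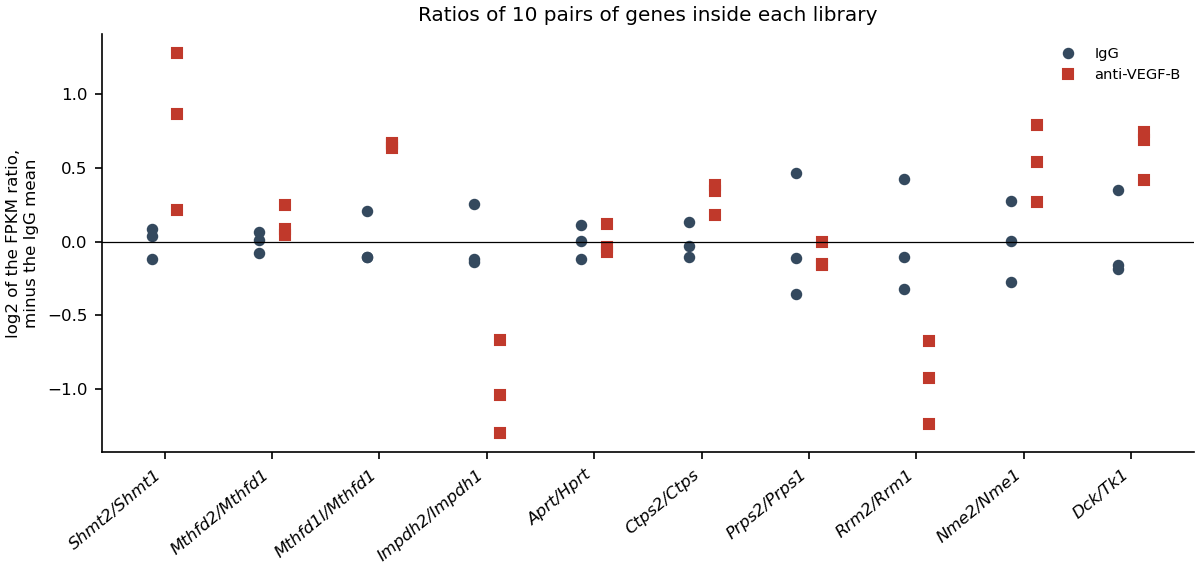
Log2 ratio of 10 gene pairs within each library, minus the mean of the IgG libraries, for IgG (circles) and anti-VEGF-B (squares). The anti-VEGF-B libraries lie apart on the lower side for Impdh2/Impdh1 and Rrm2/Rrm1 and on the higher side for Shmt2/Shmt1, Mthfd1l/Mthfd1, Ctps2/Ctps and Dck/Tk1.

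The calls were unevenly spread over levels, among all genes as well as among the members. Among the 16 members with a mean of 1 to 5 FPKM, 7 were called lower and 0 higher. Of all genes of that level, 27.3% were called lower and 1.98% higher. Among the 5 members of 5 to 20 FPKM, 1 was called lower (Prps1) and 0 higher, against 24.8% and 4.05% of all genes of that level. Among the 11 members of 20 FPKM and over, 1 was called lower (Phgdh) and 1 higher (Impdh1), against 14.7% and 12.4% of all genes of that level. Adding 1 FPKM before the log understates the change of the genes of low level.

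Genes of the same pathways outside the list were counted in the same fit. Of 12 tested genes of the folate cycle, 3 fell (25.0%, against 23.8% of all genes) and 0 rose, with a median log2 fold change of -0.22. They were Mtr, methionine synthase (-0.46, adjusted p = 0.0187), Slc19a1, the reduced folate carrier (-0.42, adjusted p = 0.0203), and Amt of the glycine cleavage system (-0.49, adjusted p = 0.0345). None of these calls was kept under quantile normalization, median centring or cyclic loess. The call of Mtr was also lost without anti-VEGF-B library 2 or 3 (highest adjusted p over all alternatives 0.117), and those of Slc19a1 and Amt without 3 and 5 of the 6 libraries (highest 0.242 and 0.231).

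Of 17 tested other purine enzymes, 5 fell (29.4%, against 23.8% of all genes) and 0 rose, again with a median of -0.22. Ampd2, an AMP deaminase (-0.53, adjusted p = 0.0126), and Itpa, which removes inosine triphosphate (-0.40, adjusted p = 0.0230), lost the call under quantile normalization and cyclic loess, Ampd2 also without anti-VEGF-B library 3 (highest adjusted p over all alternatives 0.0736) and Itpa also under median centring and without any library but IgG library 3 (highest 0.204). Of 14 tested other pyrimidine enzymes, 3 fell (21.4%, against 23.8% of all genes) and 1 rose, with a median of -0.15, equal to that of all genes. The counts were 2 lower and 2 higher under quantile normalization and under cyclic loess, and turned to 1 lower and 3 higher under median centring. Samhd1, which breaks down deoxyribonucleoside triphosphates, fell (-0.64, adjusted p = 0.00875), as did Dut, which turns dUTP into the precursor of thymidylate (-0.42, adjusted p = 0.0128). Nt5c3, a pyrimidine nucleotidase, rose (0.61, adjusted p = 0.0103). Dut was not called under median centring (highest adjusted p over all alternatives 0.108).

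The genes of S phase, the time at which deoxyribonucleotides are used, had a larger share of calls than the members. Of 25 tested, 16 fell and 2 rose, 72.0% against 28.7% of all genes, with a median log2 fold change of -0.43. Mcm3, a subunit of the replicative helicase, fell by 0.93 on the log2 scale (adjusted p = 0.00491), Fen1, the flap endonuclease, by 0.97 (adjusted p = 0.00699), and Rfc1, of the clamp loader, by 0.66 (adjusted p = 0.00692). The counts were 8 lower and 2 higher under quantile normalization, 10 and 3 under median centring and 9 and 2 under cyclic loess. The part of the cells' distribution over the cell cycle in the level of Rrm2, Tk1, Tyms and Dtymk was not tested.

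The serine genes and Mthfd2 are known targets of the transcription factor ATF4, and purine and pyrimidine genes of MYC. The level of Atf4 rose from 581 ± 51.7 FPKM with IgG to 763 ± 7.09 FPKM, by 0.40 on the log2 scale (adjusted p = 0.0127), a call that was lost without anti-VEGF-B library 3 (adjusted p = 0.0533). Myc had means of 23.6 ± 5.86 FPKM with IgG and 16.7 ± 2.33 FPKM with anti-VEGF-B (log2 fold change -0.46, adjusted p = 0.0581). The log2 fold change of Myc was -0.28 without IgG library 2 and -0.26 under median centring, and it passed without IgG library 1 (-0.59, adjusted p = 0.0344). Of 17 tested further genes known as ATF4 targets, 6 fell (35.3%, against 23.8% of all genes) and 2 rose, with a median of -0.18. Under median centring 4 were lower and 5 higher, with a median of 0.016, and under quantile normalization and cyclic loess 4 were lower and 2 higher. Slc1a5, a glutamine carrier (-0.88, adjusted p = 0.00488), Sesn2 (-0.70, adjusted p = 0.00711) and Aldh18a1 of proline synthesis (-0.79, adjusted p = 0.0137) fell, the last not without anti-VEGF-B library 3 (highest adjusted p over all alternatives 0.104). Of 11 tested regulators of these pathways, 2 fell (18.2%, against 23.8% of all genes) and 1 rose. The called share of 27.3% lay near the 28.7% of all genes. With the values as deposited, Mtor (-0.47, adjusted p = 0.0136) and E2f2 (-0.47, adjusted p = 0.0328) fell and Atf4 rose. Neither fall was called under quantile normalization, cyclic loess or without anti-VEGF-B library 3. The counts were 0 lower and 2 higher under quantile normalization and cyclic loess and 1 lower and 3 higher under median centring. E2f2 was also not called under median centring or without anti-VEGF-B library 1 or 2 or IgG library 2 (highest adjusted p over all alternatives 0.147, and 0.0701 for Mtor).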

How the data were processed

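Total RNA of CD4+ T cells activated for 3 days was sequenced after a stranded library kit, in 3 libraries of each treatment (anti-VEGF-B and IgG). The authors aligned reads to GRCm38/mm10 with hisat2 and estimated levels with StringTie and Ballgown. The deposited table holds FPKM for 10995 protein-coding genes, with no stated normalization between libraries. Although named raw data, its values are not whole numbers, so no count model was used. FPKM carry no depth, which is unknown, and the spread between libraries is the only error given. Of its columns of values per sample, 0 could not be mapped to a sample.

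With R 4.3.3 and limma 3.58.1 (empirical Bayes with trend, no covariate), log2(FPKM + 1) was fitted for 8816 genes (mean over the libraries of 1 FPKM or more), and genes were called at a Benjamini-Hochberg adjusted p under 0.05 over all genes. Fold changes are on the log2(FPKM + 1) scale, which understates the change of low genes. Ratios were tested with scipy 1.17.1. On simulated data of the same 8816 genes, 91% of 200 genes changed by a log2 of 1 and 47% of 200 changed by 0.5 were called, with 10 and 6 unchanged genes called. The simulation used independent normal errors and changed only 200 genes, while 2528 genes were called in the data. These rates therefore need not hold for the data.

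Values of every library are given for called members and for both genes of a pair with a called member, statistics for the others, and at most 3 called genes with the lowest adjusted p of each further list, with Atf4 and Myc named whatever their values; 1 gene that this rule names is not reported here. The members, pairs and lists were chosen with earlier results of these data known. No p is given for a list. The alternatives were 3 scalings, 2 filters, another pseudocount, 2 settings of the moderation, a replicate block, leaving out each library and another call rule.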

Additional observations from a re-analysis of the deposited data

How the results depend on the processing

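None of the 10 called members reversed its direction under any alternative, and of their 143 results under an alternative 74 kept the call and 69 lost it, while the members not called gained one in 9 of 321. The count of 10 called members became 3 under quantile normalization, 5 under median centring, 4 under cyclic loess, 3 of 16 with the filter at 5 FPKM, 0 without moderation (14 at an unadjusted p under 0.05, 11 lower and 3 higher) and 4 by the rule of an unadjusted p under 0.05 and a log2 fold change beyond 0.5 in either direction. It was 11 with no filter, 10 with a pseudocount of 0.1 and 10 with moderation without trend. The called share with the filter at 5 FPKM was 18.8% of members, against 27.0% of all genes. Without moderation the count was 0 in every branch and list, where 12 genes of 8816 were called in all. The median of the members became -0.048, -0.043 and -0.048 under the 3 scalings and -0.016 with the filter at 5 FPKM. Under quantile normalization, the serine and folate genes had 0 calls and a median of -0.15, purine 1, pyrimidine 1 and -0.0071, shared steps 1 and -0.089, other folate genes 0, other purine enzymes 2 and S phase 10. Under median centring, the serine and folate genes had 1 call and -0.069, purine 1 and 0.17, pyrimidine a median of -0.023, shared steps 1 and -0.11, other folate genes 0 and other purine enzymes 2. Under cyclic loess, the serine and folate genes had 0 calls, purine 1, pyrimidine a median of -0.0017, shared steps 1 and -0.089, other folate genes 0, other purine enzymes 1 and S phase 11. With the filter at 5 FPKM, the serine and folate genes had 1 call, purine 1, pyrimidine 0 and a median of 0.13, shared steps 1 and -0.079, other folate genes 0, other purine enzymes 3, S phase 10, ATF4 targets 5 and regulators 1, of fewer genes tested. A pseudocount of 0.1 moved the pyrimidine median to -0.31. Leaving out each library in turn gave 1 (without anti-VEGF-B library 3) to 7 called members with a median of -0.30 to -0.18, 0 to 3 in the serine and folate branch, 1 to 3 in purine (median -0.077 to -0.0096), 0 to 1 in pyrimidine, 0 to 2 in shared steps, 0 to 3 among other folate genes, 1 to 5 among other purine enzymes, 3 to 5 among other pyrimidine enzymes, 8 to 16 in S phase, 4 to 7 among ATF4 targets and 0 to 4 among regulators. Without anti-VEGF-B library 1, 2 or 3, the called share of members was 18.8%, 15.6% and 3.13%, against 19.2%, 19.7% and 9.76% of all genes. Without IgG library 1, 2 or 3, it was 15.6%, 12.5% and 21.9%, against 28.0%, 15.3% and 21.0%. The replicate block gave 11 called members (Mthfd1 and Dtymk lost, with adjusted p of 0.0540 and 0.0572, and Psat1, Mthfd2 and Nme2 gained, with 0.0379, 0.0210 and 0.0392) and 3 other purine enzymes; libraries of the same number had correlations of their deviations of -0.030, 0.11 and 0.089, so the numbers were not taken to pair them, and not every library correlated best with its own number. Except where a value shows it, the cause was not tested. Depth is unknown and limits the genes near 1 FPKM most.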
